A study of Caenorhabditis elegans with 2 samples.

Results

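The 6 vitellogenin genes of Caenorhabditis elegans, vit-1 to vit-6, were examined for peaks in chromatin immunoprecipitation followed by sequencing (ChIP-seq) of GFP-tagged F37B4.10. They were chosen by name from the Ensembl WBcel235 annotation and make up 6 of its 19973 nuclear protein-coding genes. The rule uses names and no measured value, but the family was picked for study with earlier results of these data known. For each gene, every peak was taken whose summit lay in the gene or up to 1000 bp upstream of its start. The worms, of strain OP374, were whole young adults of 61 h, grown from L1 larvae starved after bleaching. They carried the integrated transgene wgIs374, which holds F37B4.10 with a TY1 EGFP 3xFLAG tag and unc-119(+), in an unc-119(tm4063) background. An antibody against GFP was used, although the antibody label names F37B4.10 itself, on chromatin sonicated to 200 to 800 bp. There was 1 group of 2 biological replicates and no second condition, so the data hold no comparison between conditions.

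Vitellogenins are large lipid-binding precursors of yolk. In the adult hermaphrodite the intestine transcribes their genes at very high levels and secretes the yolk particles, which oocytes take up through the receptor RME-2. Strongly transcribed chromatin is known as a place where ChIP-seq of unrelated proteins can give signal, so these genes bear on whether F37B4.10 signal lies at such chromatin. Transcription was not measured in these data, and whole animals do not separate the intestine from other tissues.

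Of the 59 ranked summits at the 6 genes, 3 had an irreproducible discovery rate (IDR) of at most 0.01. A low IDR means that a peak ranks consistently high when replicates are compared. The summits of these 3 peaks lay in coding sequence of vit-2 or vit-5. Replicate values below come from each replicate's own list, as the summit within 138 bp. The reference sequences of these 3 peaks (RefSeq, WBcel235, plus strand, the strand of both genes) are shown because no other peak of the family met that limit in the main joint list. Capitals mark the 11 bases centred on the summit. The peak at 155 bp from the start of vit-2 (chrX:5101059-5101334, exon 1) had a signal of 59.1. The peak at 4902 bp from the start of vit-2 (chrX:5105806-5106081, exon 5 at its summit) had a signal of 94.2. Its sequence begins at the end of the intron before exon 5 and is given up to the stop codon, at 5106078. The peak at 260 bp from the start of vit-5 (chrX:3403593-3403868, exon 1) had a signal of 77.4.
vit-2 at 155: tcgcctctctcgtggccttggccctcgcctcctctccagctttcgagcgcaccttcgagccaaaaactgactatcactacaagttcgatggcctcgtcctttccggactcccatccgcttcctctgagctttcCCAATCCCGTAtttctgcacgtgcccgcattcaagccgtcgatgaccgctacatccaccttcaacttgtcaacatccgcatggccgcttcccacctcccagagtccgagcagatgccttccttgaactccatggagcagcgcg
vit-2 at 4902: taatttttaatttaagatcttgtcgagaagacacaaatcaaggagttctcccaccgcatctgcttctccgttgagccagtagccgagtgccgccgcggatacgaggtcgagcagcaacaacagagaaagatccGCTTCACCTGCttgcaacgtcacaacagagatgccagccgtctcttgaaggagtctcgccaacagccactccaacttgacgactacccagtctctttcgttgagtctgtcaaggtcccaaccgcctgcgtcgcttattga
vit-5 at 260: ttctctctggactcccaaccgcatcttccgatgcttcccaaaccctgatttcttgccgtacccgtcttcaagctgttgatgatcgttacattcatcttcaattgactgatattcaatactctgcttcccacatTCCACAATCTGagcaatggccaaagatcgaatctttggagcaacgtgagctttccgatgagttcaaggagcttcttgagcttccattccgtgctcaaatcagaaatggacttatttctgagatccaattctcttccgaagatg

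Vitellogenin promoters are known for a pair of short sequence elements, VPE1 (TGTCAAT) and VPE2 (CTGATAA, which holds a GATA core). Both were searched on both strands in the 250 bp before each gene start, and no match overlapped another. VPE1 was present upstream of 6 of the 6 genes, against 4.81% of 19973 protein-coding promoters of the same length. VPE2 was present upstream of 5 of the 6, all but vit-3, against 7.20% of promoters. Both elements together were found at 5 of the 6 genes and at 0.396% of promoters. The elements are known from vitellogenin promoters, so these counts restate what is known and are no test. The VPE1 match nearest each start is shown in the direction of the gene, with 10 bases on each side and the element in capitals. Positions are those of the first base of the element, in bp from the gene start, negative upstream. The match of vit-6 lies on the opposite strand, so its capitals read as the reverse complement.
vit-1 VPE1 at -115: attgagcaacTGTCAATgtgccaaatt
vit-2 VPE1 at -57: atcgaacataTGTCAATctttagccgt
vit-3 VPE1 at -50: gtgcctgccaTGTCAATtaaacacact
vit-4 VPE1 at -59: tcgcctgtccTGTCAATtaaacacact
vit-5 VPE1 at -48: gaaggaatagTGTCAATttcagttgca
vit-6 VPE1 at -163: gcactcaacaATTGACAcctgtctcaa
The VPE2 matches follow in the same layout, with that of vit-1 on the opposite strand.
vit-1 VPE2 at -92: aattaaagccTTATCAGtgcgctaaat
vit-2 VPE2 at -160: caatttgtttCTGATAAgggtcacaaa
vit-4 VPE2 at -138: tcaatttgcgCTGATAAgcattaaatg
vit-5 VPE2 at -127: tcagtttcaaCTGATAAtgcggtaaaa
vit-6 VPE2 at -143: gtctcaatgaCTGATAAgcatgctgag
Of the 13 element matches in all, 6 lay wholly inside a peak interval of the joint ranked list. The share of such matches inside a peak over all promoters was not computed, so this count cannot be read as a trait of the vitellogenin genes. The covering peaks had signals of 44.5 at vit-1, 40.7 at vit-4, 27.3 at vit-3 and 8.66 at vit-6, and none had an IDR of at most 0.01. No match at vit-2 or vit-5 lay inside a peak. A match is a stretch of letters and was not tested as a binding site.

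**Figure D1:**
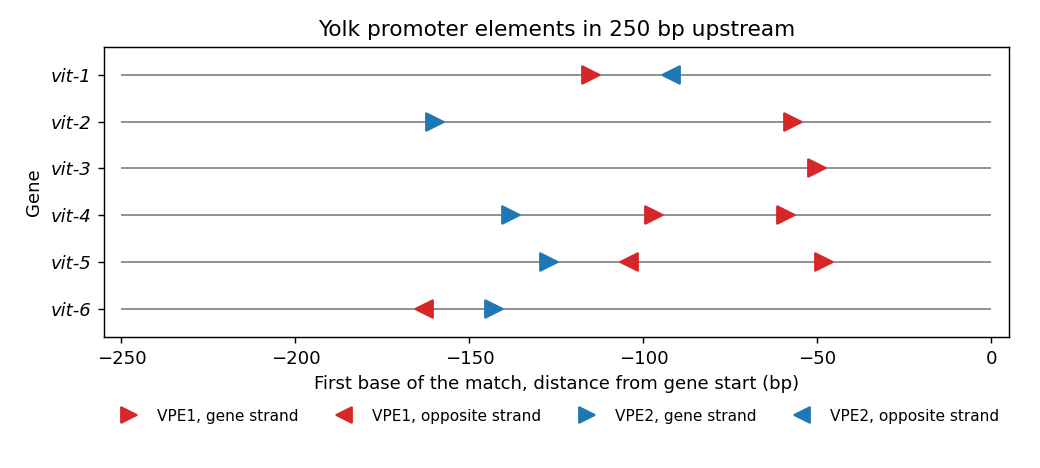
Position of exact matches to the elements VPE1 and VPE2 in the 250 bp before each of the 6 vitellogenin gene starts. Each triangle is a match, placed by its first base (bp from the gene start) and pointing right for the gene's strand. VPE1 stands at all 6 genes and VPE2 at all but vit-3.

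The peak lists behind these values were deposited by the authors. The main list holds 115634 candidate peaks ranked over both replicates, with a median signal of 23.6, and puts a summit at most genes, so the mere presence of a summit says little. At least 1 ranked summit lay in the window of 6 of the 6 vitellogenin genes, against 91.1% of all protein-coding genes. An upstream summit was found at 6 of 6, against 74.2%. Summits inside a neighbouring gene were counted for all genes alike, and the upstream summit of vit-5 is such a case. The signal is the authors' own value per peak, on a scale that is not stated, so values of different lists are given side by side and are set in order only within a list. The authors' conservative list keeps 843 of the 905 ranked peaks with an IDR of at most 0.01, the 3 vitellogenin peaks among them. Read depth was not given in the sources used here.

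vit-2 had the strongest signal of the family. The gene (WBGene00006926, X, 5101042 to 5106169, plus strand, 5 exons) encodes a yolk protein of the YP170 type. It held 12 summits with signals of 9.21 to 94.2. The strongest, 4902 bp from the start, ranked 181 in the list, with a −log10 IDR of 2.49. The list of replicate 1 gave it a signal of 64.9 (rank 72 of 58046) and that of replicate 2 a signal of 33.2 (rank 3858 of 63045). The replicate 1 summit lay at 4899 bp, in coding sequence. The replicate 2 summit lay at 4772 bp, in an intron, and was only just near enough to be matched. The replicates thus differed in the place of this peak. The signal at 155 bp ranked 2377 (−log10 IDR 2.13), with 31.5 in replicate 1 and 37.8 in replicate 2. Another peak, at 4001 bp, reached 52.3 (−log10 IDR 1.56), with 33.6 in replicate 1 and 26.3 in replicate 2. The strongest signal of vit-2 in the joint list and in replicate 1 was thus near the end of the gene, while in replicate 2 it was the peak near the start. The gene beyond, C42D8.9, runs towards vit-2 on the opposite strand and overlaps its end by 11 bp. It held another peak with an IDR of at most 0.01, with a signal of 83.1 and rank 312.

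vit-5 (WBGene00006929, X, 3403471 to 3408603, plus strand, 6 exons), also of the YP170 type, held 10 summits with signals of 13.3 to 77.4. The strongest, 260 bp from the start, ranked 448 (−log10 IDR 2.01). Its signal was 33.5 in the list of replicate 1 (rank 1361) and 33.6 in that of replicate 2 (rank 3630). Just inside the limit, its IDR was 0.00987. The peak 4976 bp from the start had a signal of 56.9 and an IDR of 0.0318, with 34.3 in replicate 1 and 25.1 in replicate 2. A peak at 2027 bp, with a joint signal of 42.7, had 36.8 in replicate 1 and no summit within 138 bp in replicate 2.

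vit-6 (WBGene00006930, IV, 8261157 to 8266459, plus strand, 8 exons) encodes the precursor of YP115 and YP88 and is the member that lies outside the X chromosome. It held the most summits, 14, with signals of 2.36 to 59.7. Its strongest summit, 216 bp from the start, ranked 2235, with 12.8 in replicate 1 (rank 40158) and 42.5 in replicate 2 (rank 786). The IDR of this peak was 0.181. The summit at 427 bp (joint signal 2.36) lay within 138 bp of the same replicate 1 peak of 12.8, and so adds no separate measurement there. The peak at 799 bp had a joint signal of 49.1, with 21.4 in replicate 1 (rank 13491) and 28.9 in replicate 2 (rank 7895).

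vit-1 (WBGene00006925, X, 7727889 to 7733168, plus strand, 5 exons) encodes another yolk protein of the YP170 type and held 10 summits with signals of 12.9 to 50.1. The strongest, 2347 bp from the start, had 32.6 in the list of replicate 2 and no summit within 138 bp in that of replicate 1. The reverse held at 3549 bp, with 33.1 in replicate 1 and none in replicate 2. The peak at 19 bp was present in both, with a joint signal of 44.5, 21.9 in replicate 1 and 18.0 in replicate 2.

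vit-4 and vit-3, which also encode YP170 proteins, are neighbours on the minus strand of X. vit-4 (WBGene00006928, 3558769 to 3563965, 6 exons) held 7 summits with signals of 3.42 to 48.4, and its strongest lay 4843 bp from the start, with 19.4 in replicate 1 and 27.1 in replicate 2. vit-3 (WBGene00006927, 3567355 to 3572549, 6 exons) held 6 summits with signals of 9.68 to 27.3, none with a match in both replicates' lists. Its strongest joint summit lay 13 bp upstream of the start, with 13.3 in replicate 1 and none within 138 bp in replicate 2. vit-3 was the weakest member, and 23.2% of all protein-coding genes had a lower strongest signal, against 99.4% for vit-2, 98.3% for vit-5, 91.5% for vit-6, 78.6% for vit-1 and 75.4% for vit-4. Genes without a summit were counted as lower.

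**Figure D2:**
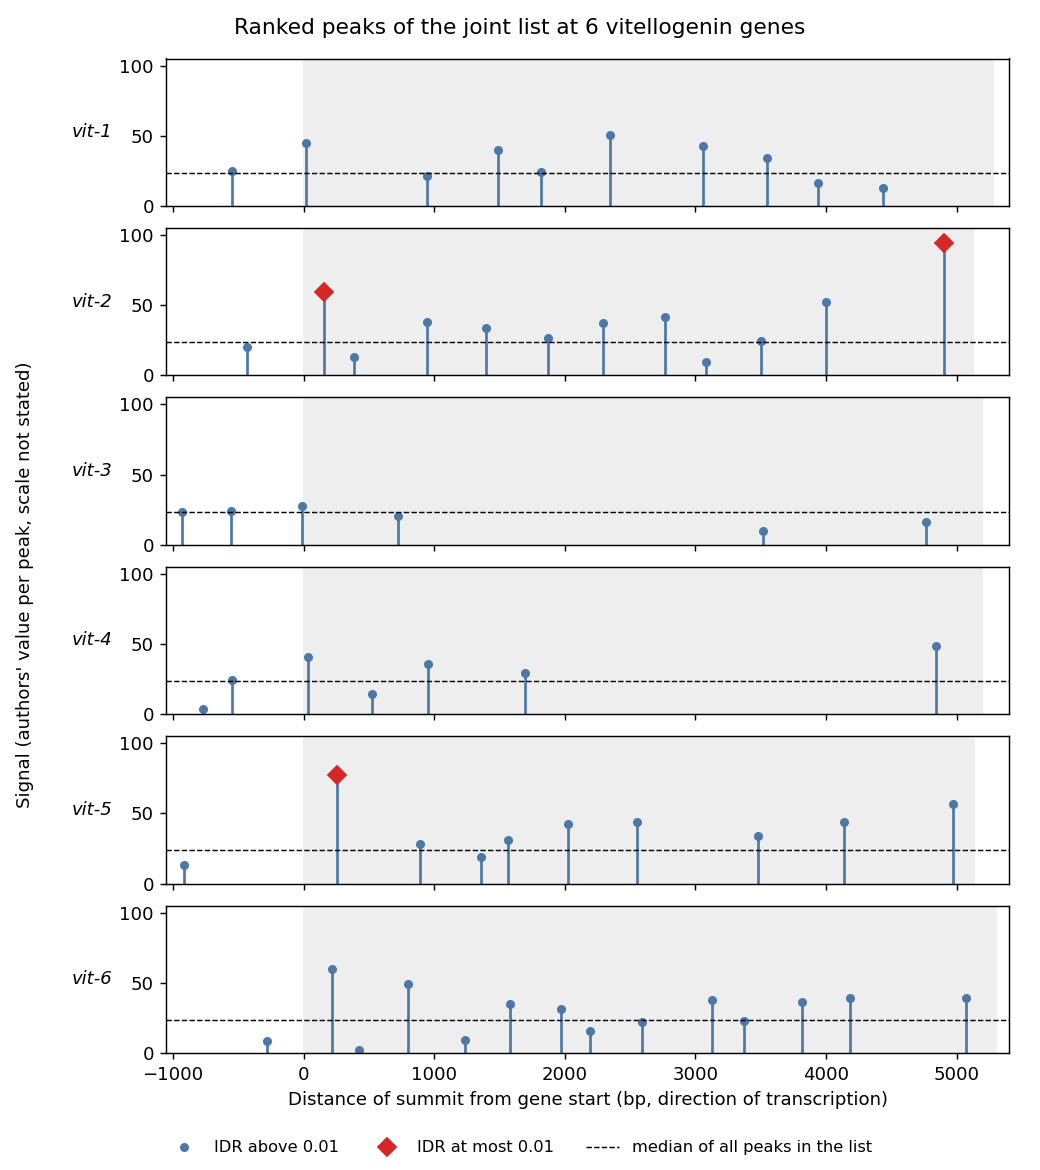
Signal of every ranked peak of the joint list (vertical axis, authors' value per peak, scale not stated) against the distance of its summit from the gene start (bp), 1 panel per vitellogenin gene, with the gene shaded. Diamonds mark the 3 peaks with an IDR of at most 0.01, at vit-2 and vit-5, and the dashed line is the median of the list, 23.6.

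In the main joint list, every summit above 27.3 lay in a gene and none lay upstream. Places are those of the summit alone. The peaks at 19 bp in vit-1 (44.5) and at 34 bp in vit-4 (40.7) also reach upstream of the start. Of the 59 summits, 50 lay in the genes (49 in coding exons and 1 in an intron of vit-5) and 9 upstream. Signals in the genes had a median of 34.8 and reached 94.2, and 35 of the 50 were above the list's median. Upstream signals had a median of 23.6 and ran from 3.42 to 27.3, with 4 of 9 above the list's median. In the 487 protein-coding genes of 5000 to 5500 bp, a range that takes in every member, in-gene and upstream signals had medians of 23.9 and 24.9. In the 95 of these genes on X the medians were 25.0 and 25.3. Base composition moved with this difference. The GC content of the members' in-gene peaks had a median of 49.3%, against 31.9% for their upstream peaks. In genes of 5000 to 5500 bp it was 38.8% in the gene and 38.0% upstream. Peaks with an IDR of at most 0.01 had a median GC content of 46.4%, against 38.0% for the whole list. The part of base composition in these signals was not tested.

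Along the genes, the members' median signals in the main joint list were highest at both ends. Of the 6, 5 had a summit in the first 10% of the gene, where the median signal was 44.5, and 5 had one in the last 10%, where it was 48.4. Among the genes of 5000 to 5500 bp, 59.5% had a summit in the first 10% (median signal 24.4) and 56.9% in the last (median 23.9). For the steps of 10% between the ends, the members' medians ran from 23.6 to 41.6. In the joint list the strongest in-gene summit was in the first 10% in vit-5 and vit-6 and in the last 10% in vit-2 and vit-4. In the genes of 5000 to 5500 bp with an in-gene summit, the strongest was in the first 10% in 11.2% and in the last 10% in 8.59%. These counts depended on the list. In replicate 1 alone, 0 of 6 members had it in the first 10% and 2 in the last, with that of vit-5 at 2025 bp and that of vit-6 at 3793 bp. In replicate 2 alone, 3 of the 5 members with an in-gene summit had it in the first 10% and 1 in the last. In the main joint list vit-1 had no summit in the last 10%, and in the other joint list it had 1 there, at 4996 bp with a signal of 5.91. It aligned with vit-2 at 92.7% identity over the whole gene, and only 0.7% of the sequence of each from 4000 to 5000 bp consisted of 50-base words that occur more than once in the genome. This division was chosen after the values were seen, and the members share sequence, so they are not independent.

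The replicates' own lists differed in the order of the genes. Each held a ranked summit at 6 of the 6 genes, against 80.6% of all protein-coding genes in replicate 1 and 83.1% in replicate 2. Replicate 1 had 34 summits in the 6 windows, with a median signal of 20.9 against 16.0 for its whole list. Replicate 2 had 36, with a median of 22.6 against 18.9. By strongest signal, the order in replicate 1 was vit-2 (64.9), vit-5 (36.8), vit-1 (33.1), vit-6 (25.9), vit-4 (19.4) and vit-3 (17.1). In replicate 2 it was vit-6 (42.5), vit-2 (37.8), vit-5 (33.6), vit-1 (32.6), vit-4 (27.1) and vit-3 (16.3). Thus vit-4 and vit-3 were the lowest pair in both, while the places of vit-1, vit-2, vit-5 and vit-6 differed between the replicates. Of the 59 joint summits, 20 had a summit within 138 bp in both lists, 6 of them at vit-2, 5 at vit-5, 5 at vit-6, 2 at vit-1 and 2 at vit-4. The share of all joint peaks matched in both lists was not computed. The members had 1 upstream summit in the list of replicate 1 (vit-3) and 2 in that of replicate 2 (vit-1 and vit-3). The single lists are shorter, with 58046 and 63045 peaks against 115634 in the joint list. The share of all protein-coding genes with an upstream summit was not computed for them. These low counts thus cannot be read as a trait of the vitellogenin genes.

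**Figure D3:**
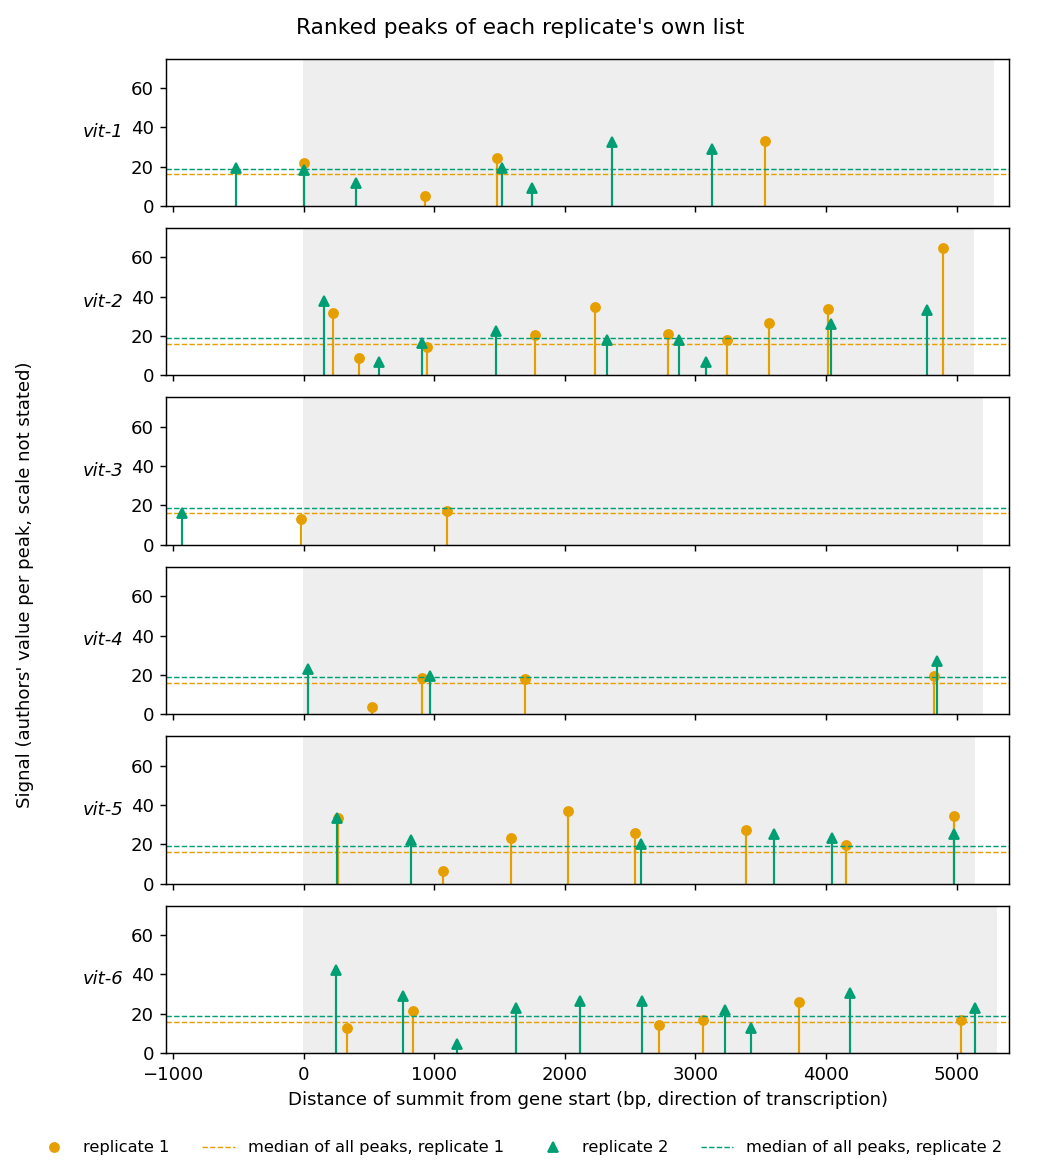
Signal of every ranked peak in each replicate's own list (vertical axis, authors' value per peak, scale not stated) against distance from the gene start (bp), 1 panel per vitellogenin gene. Circles are replicate 1, triangles replicate 2, and dashed lines the medians of the 2 lists, 16.0 and 18.9. The peak of 64.9 at the end of vit-2 in replicate 1 is the highest point.

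The genes differ in how much of their sequence is unique. vit-3, vit-4 and vit-5 aligned with one another at 96.7 to 97.7% identity over the gene, vit-1 with vit-2 at 92.7%, and vit-6 with the other members at 49.8 to 50.8%. Of all 50-base words in the window, 66.8% of those of vit-4, 62.9% of those of vit-3 and 41.0% of those of vit-5 occurred more than once in the genome. The share was 11.0% at vit-2, 10.7% at vit-1 and 0% at vit-6. Summits per kb in the main joint list were 2.22 at vit-6, 1.96 at vit-2, 1.63 at vit-5, 1.59 at vit-1, 1.13 at vit-4 and 0.969 at vit-3, so that the 2 genes with the most repeated words had the fewest. The order did not follow the repeated share in replicate 1, with 1.63 at vit-2, 1.30 at vit-5, 0.952 at vit-6, 0.645 at vit-4, 0.637 at vit-1 and 0.323 at vit-3. In replicate 2 vit-4 and vit-3 were again the lowest. The values there were 1.59 at vit-6, 1.47 at vit-2, 1.11 at vit-1, 0.978 at vit-5, 0.484 at vit-4 and 0.161 at vit-3. The genes of 5000 to 5500 bp had 1.23 summits per kb in the joint list, 0.629 in replicate 1 and 0.680 in replicate 2. The longest stretches without a summit were 3144 bp in vit-4 (1699 to 4843 bp), where 92.2% of words were repeated, and 2792 bp in vit-3 (725 to 3517 bp), where 77.8% were. Elsewhere in these windows the shares were 40.1% for vit-4 and 50.5% for vit-3. The other joint list and replicate 1 each held a vit-3 summit within that stretch, at 1094 bp and 1100 bp. In vit-5 and vit-2 the longest such stretch held fewer repeated words than the rest, with 3.24% against 50.02% in vit-5 and 0.777% against 12.7% in vit-2. In vit-1 it held 15.7% against 9.84%, and vit-6 had 0% in both. How reads that match several places were treated was not given in the sources used here, and reads from near-identical stretches of vit-3, vit-4 and vit-5 may not be told apart, so values inside those genes are uncertain. The part of repeated sequence in the low counts of vit-3 and vit-4 was not tested. At vit-2 the peaks at 155 and 4902 bp held 0% repeated words, and the vit-5 peak at 260 bp 13.7%. The strongest peak of vit-4, at 4843 bp, held 68.3%.

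**Figure D4:**
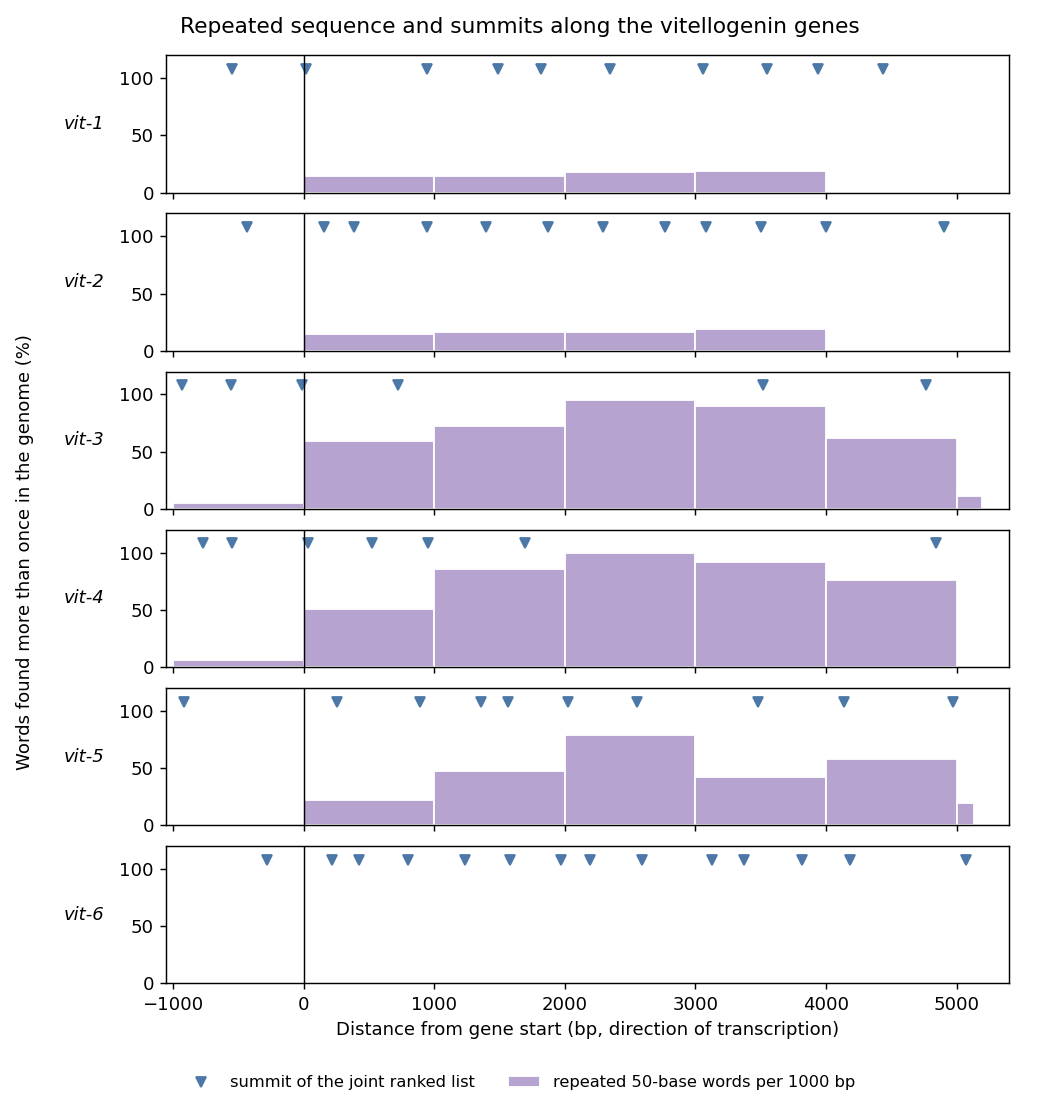
Share of 50-base words that occur more than once in the genome (bars, % per 1000 bp, vertical axis) and summits of the joint ranked list (triangles) against distance from the gene start (bp), 1 panel per vitellogenin gene. vit-3 and vit-4 reach 95.0 and 100% in the stretch from 2000 to 3000 bp, where neither has a summit, and vit-6 stays at 0%. In the same stretch vit-5 has 78.4% and 2 summits.

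Peaks under the IDR limit were set beside those of other genes. At least 1 summit with an IDR of at most 0.01 was found at 2 of the 6, vit-2 and vit-5, against 3.45% of all protein-coding genes and 4.72% of those of 5000 to 5500 bp. A summit in the top 1% of signals (1156 peaks) was found at the same 2 genes, against 4.45% of all protein-coding genes and 6.16% of those of that length. The other 4 members had neither. In the authors' other joint thresholded list, of 947 peaks, the genes were vit-2 (4902 bp) and vit-6 (1584 bp, signal 35.3), against 3.81% of all genes, so vit-5 is not in it. The thresholded list of replicate 1 held 1 member, vit-2, against 0.345% of all genes, and that of replicate 2 held 0 of 6, against 0.386%. The median of the strongest signal per gene was 54.9 for the members, against 45.6 for genes of 5000 to 5500 bp. It was 45.5 for those of them on X and 39.96 for all protein-coding genes. Genes without a summit are left out of these medians, which cover 456 of 487, 91 of 95 and 18202 of 19973 genes. Over 6 genes, with vit-3, vit-4 and vit-5 nearly identical, these shares and medians are descriptions.

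Genes that regulate yolk production or take up yolk had strongest signals of 29.1 to 71.3. All 11 listed genes had a ranked summit and 2 had one with an IDR of at most 0.01, against 3.45% of protein-coding genes, with a median strongest signal of 48.2. The 2 were pqm-1, a zinc finger factor gene (71.3, at 1713 bp), and mab-3, whose DM-domain product represses yolk genes in males (63.2, at 60 bp from the start). In the replicates, pqm-1 had 45.7 in replicate 1 and 32.2 in replicate 2, and mab-3 had 33.4 in replicate 1 and 40.8 in replicate 2. rme-2, the gene of the yolk receptor in oocytes, reached 58.3 at 1083 bp with a −log10 IDR of 1.43. The homeobox genes unc-62 (51.5) and ceh-60 (48.2), the heterochronic zinc finger gene lin-29 (51.4), the mTORC2 gene rict-1 (47.4) and the lipoprotein receptor family gene lrp-2 (45.4) followed. Intestinal GATA factor genes were lower, at 38.2 for elt-2 and 29.1 for elt-7, and the kinase gene sgk-1 reached 35.2.

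Other genes known for high transcription overlapped with the vitellogenin genes in strongest signal. Of 12 intestinal genes, 11 had a ranked summit and 0 had one with an IDR of at most 0.01. Their median was 46.2, and the intestinal actin gene act-5 (69.1) and the saposin-like gene spp-1 (66.6) led. Of 10 genes of body wall muscle, 1 had a summit with an IDR of at most 0.01, the myosin heavy chain gene unc-54 (73.9), ahead of the actin gene act-4 (73.1), and the median was 49.5. Of 6 translation genes, 1 did, the ribosomal stalk gene rla-0 (68.3), behind rla-1 (70.3) by signal, and the median was 56.6. Chemoreceptor genes of the str, srh, sri, srj, srx, sre, srd and srw families are mostly silent outside neurons. Of these 844 genes, 16 (1.90%) had a summit with an IDR of at most 0.01. Over the 750 with any ranked summit, the median strongest signal was 34.4. The range of 3.12 to 120.3 takes in every vitellogenin gene. In the joint list vit-2 (94.2) and vit-5 (77.4) were above the highest gene of the yolk, intestinal, muscle and translation lists. There vit-3 (27.3) was below all but 1 of the listed genes with a summit, act-3 (23.1). In replicate 1 alone vit-2 (64.9) was above all listed genes, but vit-5 (36.8) was below pqm-1 (45.7). In replicate 2 alone vit-2 (37.8) and vit-5 (33.6) were both below act-4 (45.6) and mab-3 (40.8). Median gene lengths of those 4 lists ran from 1554 to 7281 bp, and that of the chemoreceptor genes was 1639.5 bp. The members' median was 5196 bp, and a longer window can hold more summits.

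**Figure D5:**
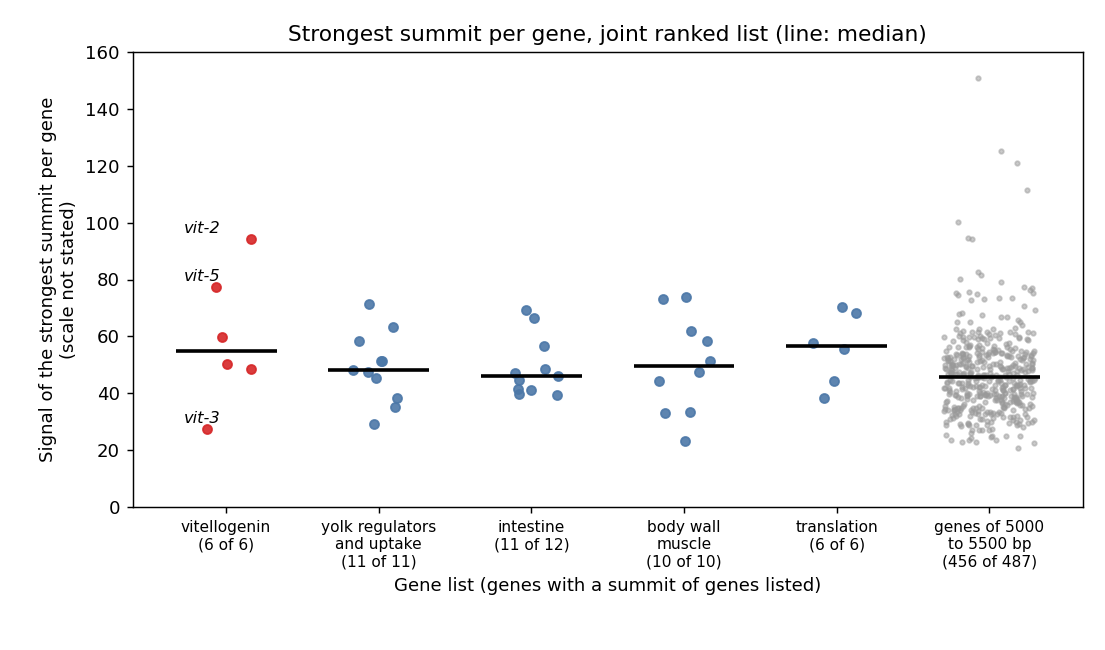
Signal of the strongest summit per gene in the joint ranked list (vertical axis, authors' value, scale not stated), 1 point per gene, for the 6 vitellogenin genes, the 4 gene lists and the protein-coding genes of 5000 to 5500 bp. Horizontal lines are medians, 54.9 for the vitellogenin genes and 45.6 for genes of that length.

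By rank of the strongest summit in the joint list, the genes nearest to vit-2 were of mixed kinds. Just above rank 181 were lep-2 (rank 177, signal 94.7) and the pair aka-1, an A-kinase anchor gene, and ubc-6, a ubiquitin-conjugating enzyme gene, which share 1 peak (rank 180, 94.4). Just below were Y39G8B.1 (rank 184, 93.9), B0205.9 (rank 185, 93.7) and the apical junction gene ajm-1 (rank 186, 93.6). The likeness is that of 1 value in 1 list. The protein-coding genes beside the members had strongest signals of 24.6 (K07H8.8, beside vit-6) to 83.1 (C42D8.9, beside vit-2), and of these C42D8.9 alone, apart from other members, had an IDR of at most 0.01.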

How the data were processed

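ChIP-seq peak lists of 2 biological replicates, grouped by the labels, were used as the authors deposited them on ce11, per the README text deposited with each sample. The aligner, peak caller, their versions, read depth and the handling of reads with several matches were not given in the sources used here. The signal per peak is the authors' deposited value, with no stated scale. IDR is given as −log10 values as deposited by the authors, and the 843 conservative peaks all had an IDR of at most 0.01 in the main ranked list. Between them, the 2 joint ranked lists also hold 16 columns of values for the 2 peak sets compared to make each list. These are peak sets rather than control DNA, and they name no sample. The columns were not used, so a planned description of their signals was not made and each replicate's own list was used.

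Summits (1-based) were assigned to genes of Ensembl release 115 on WBcel235, the same sequence as ce11, with a window of 1000 bp upstream. Ranks follow signal. Identity came from MAFFT 7.526 global pairs. Python 3.11.15, numpy 2.4.6, pandas 2.3.3 and matplotlib 3.10.9 were used. The assignment, tested with summits planted at known places among 19973 genes, recovered those of 200 of 200 genes. No test was run, since there is 1 group. Named genes are the members, the yolk list, the top 2 of each other list, neighbours, and the 3 genes ranked just above and just below the best member. Genes outside that rule (act-3) were chosen after their values were seen. The members and lists were chosen with earlier results of these data known.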

Additional observations from a re-analysis of the deposited data

How the results depend on the processing

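No paired analysis was possible because there is 1 group. All 6 genes kept a ranked summit under every alternative that kept the 6, and 4 of 4 did without vit-3 and vit-4, which was added after seeing the data. Single replicates' lists, each leaving out the other replicate, moved most values, and each holds 1 sample by construction. Genes with a summit past an IDR of 0.01 numbered 0 to 1 in these lists, ranked or thresholded, against 2. Summits numbered 34 to 36, against 59, and summits per kb 0.913 to 0.967, against 1.58. The highest signal was 42.5 to 64.9, against 94.2. Genes with an upstream summit numbered 1 to 2, against 6. Keeping only signals above the list's median left 39 summits, 1.05 per kb, and 3 genes with an upstream summit. With 500 bp upstream, 3 genes had one. The share of all protein-coding genes with an upstream summit was computed only for the main list with 1000 bp, at 74.2%. The lower counts under other settings thus cannot be read as a trait of the vitellogenin genes. Without vit-3 and vit-4 the members had 1.85 summits per kb. With an IDR of at most 0.05 the genes were still vit-2 and vit-5. The other 39 of 56 values stayed within 1.5 times the count, or within the SD between the replicates' lists for signal and density. The unknown depth limits any statement on weak peaks.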
